A study of Mus musculus with 4 samples.

Results

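The genes through which immune cells break down tryptophan and sense its products were read in CD11c+ cells of mouse mesenteric lymph nodes. The group holds 9 of the 55450 gene rows in the files, picked by symbol: Ido1, Ido2, Afmid, Kmo and Kynu of the kynurenine pathway, and Ahr, Ahrr, Tiparp and Cyp1b1 around the aryl hydrocarbon receptor (AHR). All 9 passed the filter on low counts and were among the 18297 genes tested. The agonist group had 2 libraries of cells kept for 6 h with 10 µM of an Ffar2 agonist, and the control group had 2 libraries of cells kept for 6 h with water. Ffar2 is a receptor for short-chain fatty acids, and the sources used here do not name the agonist compound. All mice were wild-type C57BL/6J, with no age in the labels. Each sample pooled 2 nodes, and its CD11c+ cells were enriched with magnetic beads and divided between 1 agonist and 1 control well. The sample titles number the wells 2 or 3, and wells of the same number were read here as 1 pool, from that protocol. The titles themselves do not name a pool.

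IDO1 and IDO2 open the ring of tryptophan, formamidase (Afmid) releases kynurenine, and KMO and kynureninase (Kynu) process it further. Kynurenine and several microbial indoles bind AHR, which pairs with ARNT and switches on genes that carry the xenobiotic response element. Ahrr, Tiparp and Cyp1b1 are such target genes: AHRR and TIPARP restrain AHR, and CYP1B1 oxidises AHR ligands. In intestinal dendritic cells the IDO enzymes are known for favouring regulatory T cells, and AHR for linking diet and microbes to immune tone.

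The libraries held 43238375 to 59902172 reads in genes. Ddx3y on the Y chromosome was read 21461 and 18752 times in the pool 3 libraries and 0 times in those of pool 2, and Xist 0 times in pool 3 against 21194 and 17776 times in pool 2. Pool and sex of the mice therefore cannot be told apart, and the labels give no sex. Dendritic cell genes were present, such as Flt3 with 6382 to 17572 reads, Zbtb46 with 2465 to 4243 and Itgax with 5415 to 9265 reads a library. T cell, B cell, plasmacytoid and macrophage markers were present too, so fewer cells of a type and less RNA per cell cannot be told apart in any value below.

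Sequence upstream of the start was held for 5 of the 9 genes. The 2 windows shown belong to Ahrr and Cyp1b1, AHR target genes that were the most and the least read of the 9, and hold no annotated exon. They are the 250 bases before the start, on the minus strand of GRCm38.p6, from RefSeq, at chr13:74292332-74292581 for Ahrr and chr17:79715062-79715311 for Cyp1b1. Capitals mark each GCGTG, the core of the xenobiotic response element, on either strand.
Ahrr: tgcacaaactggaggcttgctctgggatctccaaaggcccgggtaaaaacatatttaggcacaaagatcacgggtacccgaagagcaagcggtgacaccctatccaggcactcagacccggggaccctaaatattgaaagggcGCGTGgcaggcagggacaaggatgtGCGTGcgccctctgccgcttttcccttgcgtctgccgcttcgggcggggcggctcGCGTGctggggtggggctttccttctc
Cyp1b1: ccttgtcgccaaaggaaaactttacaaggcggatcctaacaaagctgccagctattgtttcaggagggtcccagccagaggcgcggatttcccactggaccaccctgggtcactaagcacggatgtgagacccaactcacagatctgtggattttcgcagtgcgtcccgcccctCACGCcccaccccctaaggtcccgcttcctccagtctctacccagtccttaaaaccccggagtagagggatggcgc
The Ahrr window held 3 cores, beginning 107, 82 and 27 bases before the start, and the Cyp1b1 window held 1, on the other strand, at 76 bases. Among the windows not shown, which overlap annotated exons, that of Tiparp held 1 core, at 170 bases. Those of Kmo and Afmid held 0. A core was found in 28.1% of the 32817 windows of the same length, and 3 or more cores in 2.77% of them. A match describes the letters and does not show a bound site.

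By level per length, in reads per kilobase of exon and per 1000000 reads (RPKM, on a scale normalised by trimmed mean of M-values, TMM), Ido1 came first with a mean of 25.1 ± 14.8 (SD, n = 4 libraries). Ahrr followed with 20.9 ± 3.07 and Kynu with 19.7 ± 7.73 RPKM. Kmo at 11.4 ± 2.50 and Ido2 at 8.03 ± 5.45 RPKM were intermediate. Tiparp at 5.12 ± 0.551, Ahr at 3.45 ± 1.84 and Afmid at 3.29 ± 2.23 RPKM were lower. Cyp1b1, at 0.0613 ± 0.0771 RPKM, was close to the detection limit. The range over libraries overlapped between every pair of neighbours in that order except Afmid and Cyp1b1. In both pool 3 libraries Ido1 ranked first, then Kynu, then Ahrr, whereas Ahrr ranked first in both pool 2 libraries. Of the 3539 exon bases of Afmid, 1566 also lie in exons of the readthrough gene Gm20708, which was listed at 0 reads in all libraries. The files list reads that fall in several genes apart, as ambiguous, so the Afmid level can be too low. Afmid also shares 83 exon bases with Tk1 on the opposite strand, which had 3367 to 4078 reads a library, and without strand the reads of these bases cannot be told apart. Exons of Ahr share 127 bases and those of Tiparp 223 bases with a gene on the opposite strand, which had 6 to 20 and 8 to 45 reads a library.

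**Figure D1:**
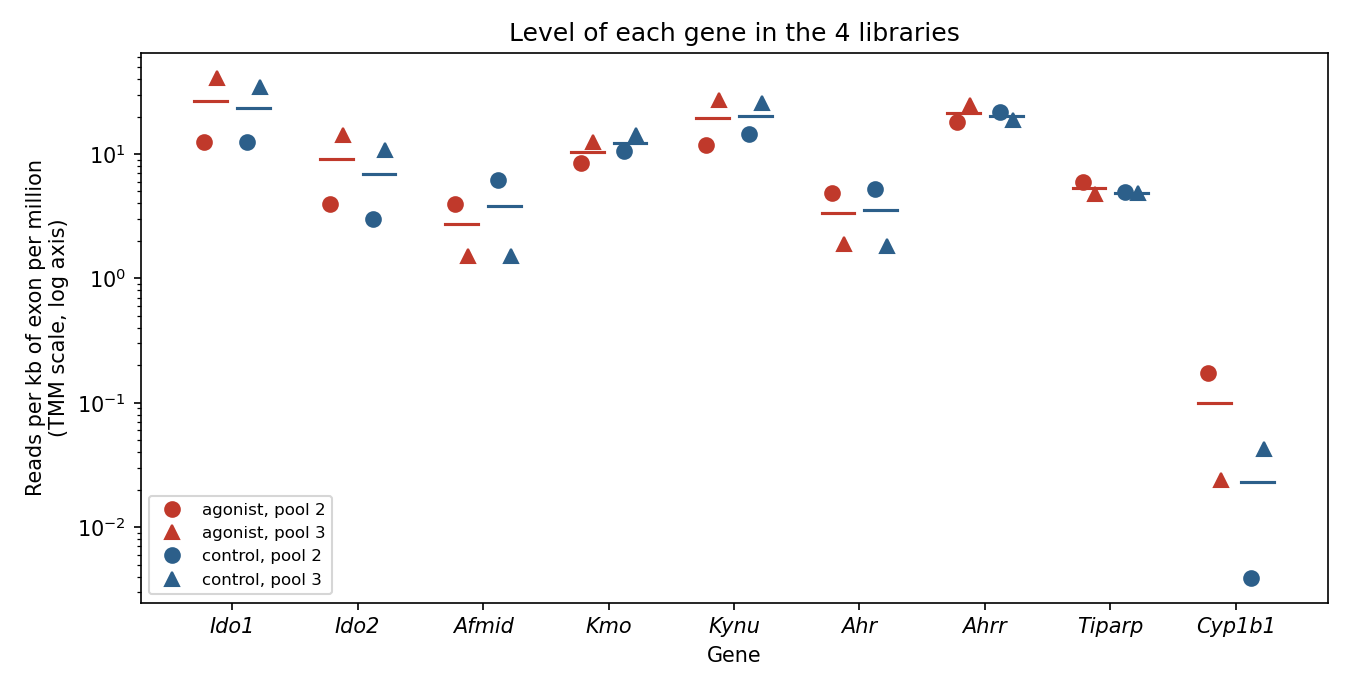
Level of each gene in RPKM (log axis), with agonist libraries in red and control libraries in blue, circles for pool 2, triangles for pool 3 and a bar for the mean of the 2 libraries of a group. Triangles sit above circles for Ido1, Ido2, Kmo and Kynu and below them for Afmid, Ahr and, by little, Tiparp, in both conditions.

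The first comparison asks what the Ffar2 agonist did to these genes within 6 h. None of the 9 genes passed edgeR's quasi-likelihood test, and none reached an unadjusted p under 0.05. Across all tested genes the share called was 0%, with 0.639% higher and 0.94% lower at an unadjusted p under 0.05, limma-voom called 0 genes and DESeq2 called 7. No gene of the 9 had both agonist libraries above or both below the control libraries, against 11.4% above and 13.5% below among all tested genes. With the agonist 2 of the 9 had higher values in both pools (21% of all tested genes) and 1 had lower values in both (27.9%). The remaining 6 pointed in opposite directions. Blocking on the pool called none of the 9 at either level, where 0.00547% of all tested genes passed adjustment and 1.69% were higher and 1.84% lower at an unadjusted p under 0.05. The median log2 fold change of the 9 was 0.09, beside -0.05 for all tested genes. T cell markers had lower values with the agonist in both pools in 9 of 9 genes and B cell markers in 7 of 7, none of which passed. In pools 2 and 3 the T cell markers summed to 582 and 279 CPM in the agonist libraries against 833 and 415 CPM in the control libraries, and their part in the values of the 9 genes was not tested.

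Ido1, the inducible enzyme of the first step (ENSMUSG00000031551.12, chromosome 8, 24584136 to 24597009, GRCm38), had 23.0 and 74.5 CPM (counts per 1000000 reads, TMM scale) in the agonist libraries of pools 2 and 3, against 22.8 and 63.2 CPM in the control libraries of pools 2 and 3. The groups overlapped almost completely, and the pool 3 libraries were the high ones in both. Agonist over control was fitted at 0.18 on the log2 scale (SE 0.67, 95% interval -1.45 to 1.81, edgeR adjusted p = 0.9999). Blocking on the pool gave 0.13 and the interval narrowed to -0.46 to 0.72.

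Ido2, the neighbouring paralogue (chromosome 8, 24531892 to 24576333), lies on the same strand, 7802 bases from Ido1. The longest run of identical bases between their annotated transcripts was 15. Ido2 had 14.5 and 52.1 CPM in the agonist libraries of pools 2 and 3, against 10.9 and 39.4 CPM in the control libraries of the same pools. It was the gene with the most even difference within pools, 0.42 in pool 2 and 0.40 in pool 3 on the log2 scale. The fitted log2 change of 0.41 (SE 0.77, 95% interval -1.45 to 2.27) did not pass (edgeR adjusted p = 0.9999). Blocking on the pool also gave 0.41, with an interval of -0.21 to 1.03 and an unadjusted p of 0.168 (edgeR adjusted p = 0.9998).

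Of the enzymes downstream, Kmo (chromosome 1, 175620381 to 175662116), which hydroxylates kynurenine, was the gene lower in both pools. It had 39.8 and 58.7 CPM in the agonist libraries of pools 2 and 3, against 49.5 and 67.3 CPM in the control libraries of the same pools, and the groups overlapped. Its fitted log2 change was -0.25 (SE 0.33, 95% interval -1.04 to 0.55, edgeR adjusted p = 0.9999). Kynu (chromosome 2, 43555329 to 43682715) had 72.1 and 166.7 CPM with the agonist, against 89.3 and 157.03 CPM in the control. Its differences were -0.31 in pool 2 and 0.086 in pool 3, and the fitted change was -0.04 (SE 0.48). Afmid (chromosome 11, 117825924 to 117839908) had 14.1 and 5.37 CPM with the agonist, against 21.7 and 5.34 CPM in the control. The 2 pool 3 values were alike, so its log2 fold change of -0.48 (SE 0.75) came from pool 2. Blocking on the pool gave -0.25 (SE 0.25) for Kmo, -0.11 (SE 0.24) for Kynu and -0.31 (SE 0.34) for Afmid.

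On the receptor side, Ahr (chromosome 12, 35497974 to 35535038) had 29.7 and 11.7 CPM in the agonist libraries of pools 2 and 3, against 32.3 and 11.2 CPM in the control libraries. Its fitted log2 change was -0.07 (SE 0.63, 95% interval -1.61 to 1.46). Ahrr (chromosome 13, 74211118 to 74292331) was the most read of the 9 genes, with 171.3 and 235.5 CPM in the agonist libraries, against 203.6 and 178.7 CPM in the control libraries. The highest and the lowest of these values were both from agonist wells, and the log2 fold change was 0.09 (SE 0.28). Tiparp (chromosome 3, 65528410 to 65555518) had 25.9 and 20.9 CPM with the agonist, against 21.4 and 21.03 CPM in the control. Agonist replicate 2 stood above its other libraries, which gave a log2 fold change of 0.14 (SE 0.30). With the pool as a block the values were -0.03 (SE 0.29) for Ahr, 0.07 (SE 0.26) for Ahrr and 0.13 (SE 0.29) for Tiparp.

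Cyp1b1 (chromosome 17, 79701537 to 79715061) was read 53 and 8 times in the agonist libraries of pools 2 and 3, against 1 and 13 times in the control libraries of those pools. In pool 2 the agonist level was 44.4-fold that of the control (exact 95% interval 7.63 to 1785.5, counting error only), and in pool 3 it was 0.567-fold (0.204 to 1.48). These folds used the reads without a prior count. The log2 differences within pools 2 and 3, 4.09 and -0.68, used a prior count of 2, which shrinks values from so few reads. The log2 fold change over both pools was 2.05 (SE 1.46, edgeR adjusted p = 0.9999), and without agonist replicate 2 it was 0.07. Leaving out each library in turn gave 0.07 to 4.61. Another AHR-responsive gene, the cytokine gene Il22, had the same single high library, with 184 and 8 reads in the agonist libraries against 4 and 11 in the control libraries (log2 fold change 3.57, SE 1.48, edgeR adjusted p = 0.9999). Reads are not independent molecules in these amplified libraries, and 1 library decides both values.

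**Figure D2:**
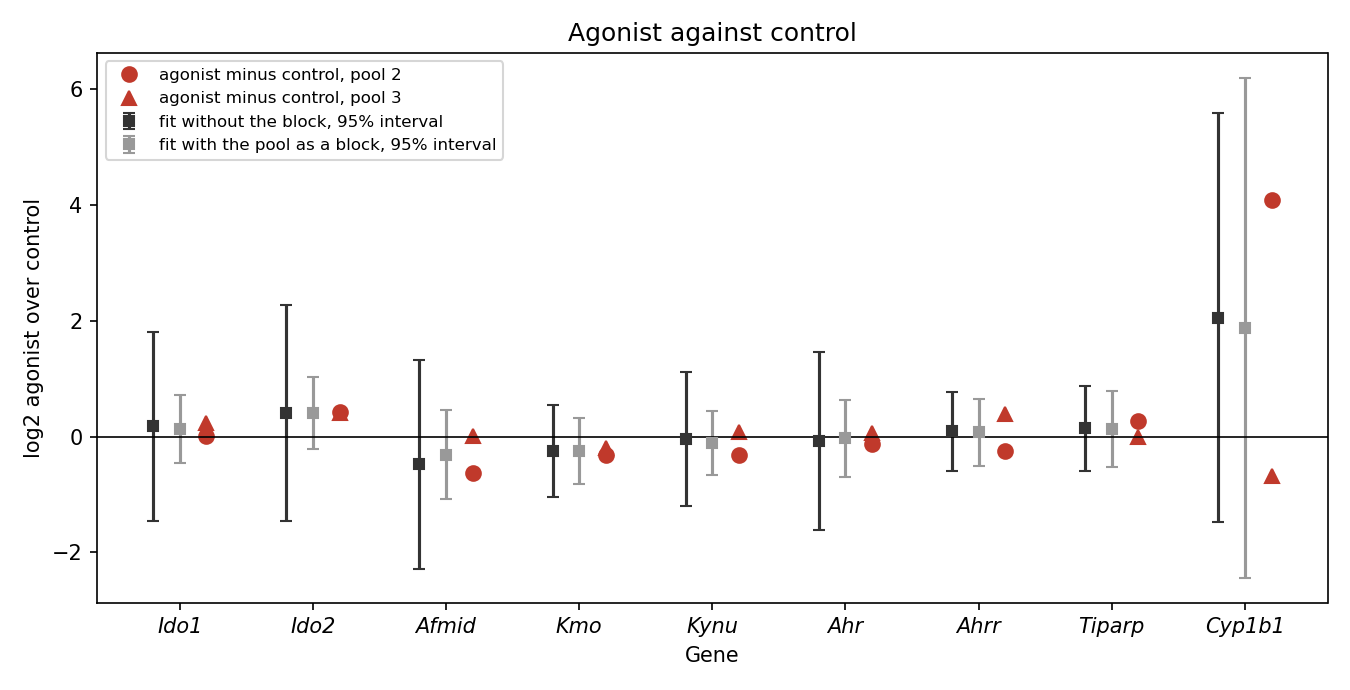
Agonist over control on the log2 scale for each gene, as fitted without and with the pool as a block (squares with 95% intervals) and as the difference within pool 2 (circles) and pool 3 (triangles). All 18 intervals include 0, and the values of Cyp1b1, 4.09 in pool 2 and -0.68 in pool 3, lie farthest apart.

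The second comparison sets pool 3 against pool 2 with the condition as a term, and shows how the genes varied apart from the agonist. Ido2 was higher in pool 3, by 1.85 on the log2 scale, and was the 1 gene of the 9 that passed. Across all tested genes 0.104% passed as higher and 0.29% as lower, 0.394% in all. At an unadjusted p under 0.05 there were 5 of the 9 genes, 3 higher and 2 lower, against 6.15% higher and 7.71% lower of all tested genes. The pools did not overlap in 7 of the 9, with 4 higher and 3 lower in pool 3, where the shares among all tested genes were 24% and 25.2%. There was 1 pool on each side, so the p-values cover only how wells of a pool vary.

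Both IDO genes had their higher values in pool 3. Ido2 averaged 45.7 CPM in pool 3 and 12.7 CPM in pool 2, and its log2 difference was 1.84 in the agonist wells and 1.85 in the control wells (fitted SE 0.28, edgeR adjusted p = 0.0361). That call was lost with library totals in place of TMM (adjusted p = 0.175) and without the condition in the model (adjusted p = 0.120), and the adjusted p over all alternatives with a test was 7.89e-07 to 0.175. Ido1 averaged 68.9 CPM in pool 3 and 22.9 CPM in pool 2. Its log2 difference was 1.58 (SE 0.27), and its edgeR adjusted p of 0.0510 lay just outside the threshold. Kynu averaged 161.9 CPM in pool 3 and 80.7 CPM in pool 2 (log2 difference 1.01, SE 0.25, edgeR adjusted p = 0.113). Kmo leaned the same way, with 63.0 CPM in pool 3 and 44.7 CPM in pool 2 (0.50, SE 0.25, edgeR adjusted p = 0.426).

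Ahr and Afmid had the opposite values. Ahr averaged 11.5 CPM in pool 3 and 31.0 CPM in pool 2, a log2 difference of -1.43 (SE 0.30, edgeR adjusted p = 0.0813). Afmid averaged 5.36 CPM in pool 3 and 17.9 CPM in pool 2, a log2 difference of -1.71 (SE 0.35, edgeR adjusted p = 0.0797). The log2 difference of the AHR targets was 0.14 (SE 0.26) for Ahrr and -0.17 (SE 0.29) for Tiparp, with adjusted p of 0.883 and 0.871 in edgeR. Per length, Ahrr stood at 13.1 and 10.4 times Ahr in the agonist and control wells of pool 3, against 3.77 and 4.12 times in those of pool 2. Kynu stood at 17.9 and 16.9 times Afmid in pool 3, against 2.95 and 2.36 times in pool 2. The Afmid level can be too low because of its shared exons, so these ratios to Afmid can be too high. The ratio of Ido2 to Ido1 per length was 0.317 and 0.351 in the agonist libraries of pools 2 and 3, against 0.239 and 0.313 in the control libraries of those pools.

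**Figure D3:**
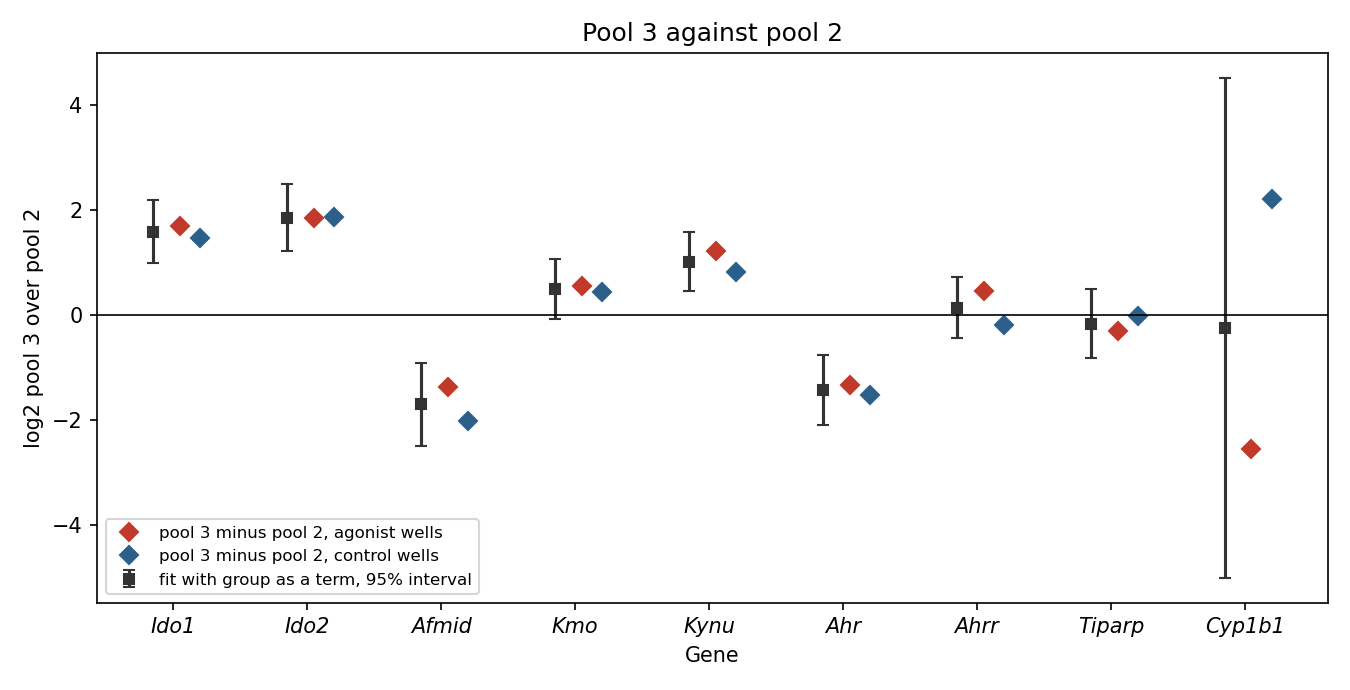
Pool 3 over pool 2 on the log2 scale, as fitted with the condition as a term (squares with 95% intervals) and as the difference in agonist wells (red) and control wells (blue). The intervals of Ido1, Ido2 and Kynu lie above 0 and those of Afmid and Ahr below it, and Ahrr and Cyp1b1 have values of opposite sign in agonist and control wells.

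Markers of cell types also had different values in the pools. The T cell list had a median log2 difference of -1.12, and its genes summed to 279 and 415 CPM in pool 3 against 582 and 833 CPM in pool 2. An unadjusted p under 0.05 was reached by 7 of its 9 genes, each with lower values in pool 3. Of all tested genes 7.71% were lower and 6.15% higher at that level. Monocyte and macrophage markers summed to 3510 and 3203 CPM in pool 3 against 5164 and 5764 CPM in pool 2 (median -0.65 over 11, 5 lower at p under 0.05 unadjusted). B cell markers had a median of -0.54 over 7, with 3 lower at that level. Plasmacytoid dendritic cell markers had a median of -0.63 over 7, with 4 lower at p under 0.05 unadjusted, and summed to 668 and 874 CPM in pool 3 against 964 and 1204 CPM in pool 2. Markers of type 1 conventional dendritic cells, which are known to carry Ido1 when mature, had a median of 0.63 over 9. In pool 3, 2 of these 9 had lower values. The list summed to 588 and 548 CPM in pool 3 against 704 and 327 CPM in pool 2. Of these sums, Irf8 alone gave 263 and 279 CPM in pool 3 against 505 and 126 CPM in pool 2. Markers of mature migratory dendritic cells summed to 18292 and 16477 CPM in pool 3 against 11287 and 13975 CPM in pool 2, most of it Ccr7, with 13378 and 12255 CPM in pool 3 against 7369 and 10069 CPM in pool 2. The median of that list was 0.27, and 4 of its 8 genes had lower values in pool 3. At p under 0.05 unadjusted, 3 of these 8 and 2 of the type 1 markers were higher. General dendritic cell markers had a median of 0.03 over 6, and 3 were lower in pool 3. Only Itgax, which encodes CD11c, reached that p, with 95.4 and 105.4 CPM in pool 3 against 178.1 and 188.7 CPM in pool 2. Type 2 conventional dendritic cell markers had a median of -0.08 over 8, and 5 were lower, 1 of them at that p. No marker of these lists passed adjustment, none was at 0 in all libraries, and their part in the differences of the 9 genes was not tested.

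Genes whose centred log2 CPM over the 4 libraries lay nearest to a gene of the group were found among 9836 genes. For Ido1 these were Shtn1, Lpl and Gm13994, at distances of 0.06, 0.09 and 0.13. For Ido2 they were Gstt3, Ccl9 and Rps4l, at 0.23, 0.24 and 0.27, and for Ahr Gnl3, Klf4 and Lyz1, at 0.05, 0.09 and 0.09. Ido2 was the 47th nearest to Ido1 and Kynu the 149th, and Afmid was the 112th nearest to Ahr. With 4 libraries, all from 2 pools, such likeness is a description.

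The rest of the kynurenine pathway and tryptophan use was read from 21 genes, of which 19 were tested and 0 passed in either comparison. Their median was 0.01 with the agonist and -0.15 between the pools, beside -0.05 and -0.0061 for all tested genes. Maoa, which degrades serotonin and tryptamine, had the smallest unadjusted p with the agonist (0.0227), with 89 and 120 reads in the agonist libraries against 238 and 235 in the control libraries, and was fitted at -1.38 on the log2 scale (SE 0.46, edgeR adjusted p = 0.9999). Kyat1, an enzyme that makes kynurenic acid, had 238 and 201 reads in the agonist libraries against 87 and 108 in the control libraries (fitted log2 change 0.997, SE 0.466). The values did not overlap between the groups in 7 of the 19 genes, Maoa and Kyat1 among them. Of these, 4 were higher with the agonist and 3 lower, against 11.4% and 13.5% of all tested genes. Slc3a2, the heavy chain of the transporter that carries tryptophan and kynurenine, had 312.6 and 127.04 CPM with the agonist against 90.3 and 119.3 CPM in the control, a difference of 1.79 in pool 2 and 0.09 in pool 3. Ddc, which makes serotonin and tryptamine, had 13 and 10 reads with the agonist against 33 and 28 in the control. Aadat was at 0 in every library.

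Of 30 genes of the AHR complex and of AHR targets, 25 were tested and 0 passed with the agonist, with a median of 0.08. Arnt, the partner of AHR, had 147.6 and 139.6 CPM in the agonist libraries against 166.4 and 128.5 CPM in the control libraries. Cyp1a1, the classical AHR target, had 8.53 and 9.92 CPM with the agonist against 10.1 and 7.003 CPM in the control, and was chosen after its values were seen. Nfkb2, which encodes an NF-kB subunit known to interact with AHR signalling, was fitted at 1.02 on the log2 scale (SE 0.40), from 1.78 in pool 2 and 0.23 in pool 3. Socs2, an AHR-responsive feedback gene in mouse dendritic cells, was fitted at 0.51 (SE 0.42), from 1.14 in pool 2 and 0.11 in pool 3. Between the pools the median was -0.08, and 1 gene passed, Serpinb2, an inhibitor of plasminogen activators. Serpinb2 had 0 reads in both pool 3 libraries against 752 in the agonist and 58 in the control library of pool 2 (edgeR adjusted p = 0.00773). Summed over the wells of a pool, it was at least 308-fold lower in pool 3 with a floor of 3 reads over the pool. Most of the pool 2 reads came from the agonist library, so that bound does not hold for the control wells alone.

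Of 25 genes around the control of Ido1, which belong to interferon and TGF-beta signalling or are costimulatory ligands and also include restraints such as Socs1 and Socs3, 24 were tested and 0 passed in either comparison. The median was 0.18 with the agonist and -0.37 between the pools. The interferon-responsive factor Irf8, which Ido1 expression is known to depend on in mouse dendritic cells, was fitted at 0.92 on the log2 scale (SE 0.48), from 2.00 in pool 2 and -0.09 in pool 3. The fitted values were 1.11 (SE 0.60) for Tgfb1, whose difference was 1.93 in pool 2 and -0.23 in pool 3, 0.75 (SE 0.56) for Ifnar2, from 1.40 in pool 2 and -0.37 in pool 3, and 0.38 (SE 0.28) for Stat2, from 0.54 in pool 2 and 0.17 in pool 3. Of 16 genes of the response to amino acid shortage, which tryptophan loss can start through the kinase GCN2, 14 were tested and 0 passed in either comparison, with medians of 0.20 and -0.14. Eif2ak4, the GCN2 gene, was fitted at 0.84 (SE 0.41), from 1.51 in pool 2 and 0.24 in pool 3. Atf3 was fitted at 0.78, from 1.31 in pool 2 and 0.25 in pool 3, and Mtor at 0.61, from 1.08 in pool 2 and 0.13 in pool 3. Sesn2, fitted at 0.89, had opposite signs, 1.84 in pool 2 and -0.20 in pool 3. The values did not overlap between the groups in 7 of the 14 genes. Of these, 5 were higher with the agonist and 2 lower, against 11.4% and 13.5% of all tested genes. The 2 lower were Asns, fitted at -0.40, and Chac1, fitted at -0.44, and Atf4 was fitted at 0.02.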

How the data were processed

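The deposited files hold whole-number read counts per gene from the authors, not normalised. They were made with STAR 2.7 and HTSeq 0.11.1 on the build GRCm38, per the submitters' processing notes, with no strand setting stated there. Groups and replicate numbers came from the sample titles. The titles name no pool, and the numbers were read as pools from the protocol. Identifiers and symbols of all 55450 rows matched GENCODE M21, which gave coordinates and exon lengths. Reads in genes were kept with edgeR's filter (minimum count 10) and scaled by TMM. The main test was edgeR 4.0.16 (quasi-likelihood, two-sided, Benjamini-Hochberg, threshold 0.05, group as the only term) in R 4.3.3, and pool 3 was set against pool 2 with group as a term. SE was derived from the fold change and the F statistic, and log2 CPM used a prior count of 2. Each pool was split between an agonist and a control well, per the labels' protocol, and same-numbered libraries deviated together (Pearson r = 0.288 across 18297 genes), so the pool number was added as a block in a further fit. DESeq2 1.42.0 and limma 3.58.1 were alternatives. Figures used matplotlib 3.10.9.

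The genes, the 4 pathway lists and the marker lists were chosen with earlier results of these data known. Named were the 9 genes, per list the genes called and up to 4 with the smallest agonist p, and 3 nearest genes by Euclidean distance (average log2 CPM of at least 2) for each of Ido1, Ido2 and Ahr. Values of other genes, such as Arnt, Cyp1a1, Aadat, Ccr7 and Itgax, were given outside that rule. Symbols listed under 2 identifiers, such as Ddit3, were left out. The labels do not say how many mice gave each pool, so p-values measure the spread between these libraries.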

Additional observations from a re-analysis of the deposited data

Results flagged for a closer look

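In 6 of the 9 genes the agonist wells were higher than their control in one pool and lower in the other. Such a split was common, since only 21% of all tested genes were higher in both pools and 27.9% lower in both. With 1 pair of wells a pool, the difference between the pools was not tested. On the log2 scale the agonist minus control values in pool 2 and in pool 3 were -0.12 and 0.061 for Ahr, -0.25 and 0.40 for Ahrr, 0.27 and -0.0065 for Tiparp, 4.09 and -0.68 for Cyp1b1, -0.31 and 0.086 for Kynu, and -0.63 and 0.0097 for Afmid.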

How the results depend on the processing

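In the agonist comparison the main count was 0 genes. It was 9 with no filter, 7 in DESeq2, 1 with the replicate block, 6 with the block in DESeq2, and 0 to 2 when 1 library was left out. None of these calls was one of the 9 genes, and the block changed no call of theirs. Between the pools the count of 72 became 5 with library totals only, 600 with no filter, 170 with a stricter filter (50 reads in every library), 706 in DESeq2, 275 in limma-voom and 5 without the condition in the model. With 3 libraries that comparison has no residual degrees of freedom and gives no count. Ido1 was called higher in pool 3 with no filter, the stricter filter, DESeq2 and limma-voom (adjusted p = 0.00235, 0.0315, 1.16e-05 and 0.0199), and Ahr and Afmid were called lower with no filter, DESeq2 and limma-voom. Kynu was called higher with no filter and DESeq2. The causes were not tested.

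Left-out libraries make the pools unequal between the groups, and the agonist log2 fold change then ranged from -0.91 to 1.16 for Ido1, -0.80 to 1.67 for Ido2, -0.86 to 0.88 for Ahr, -0.16 to 0.34 for Ahrr, -0.56 to 0.062 for Kmo, -0.78 to 0.48 for Kynu and -1.30 to 0.86 for Afmid, on both sides of 0. The pool difference from the complete condition alone ranged from -0.19 to 0.46 for Ahrr and -2.55 to 2.21 for Cyp1b1. With the stricter filter the agonist value of Ahr was 0.0073, and in DESeq2 the pool difference of Cyp1b1 was 0.055. Depth limits Cyp1b1, with 1 to 53 reads a library.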
